A study of Arabidopsis thaliana with 6 samples.

Results

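WRKY genes encode plant transcription factors named for a conserved WRKY motif in their DNA-binding domain, and 66 of them were followed here among 27052 gene entries measured by RNA-seq in Arabidopsis thaliana seedlings. They were taken by name, as every entry called WRKY (with or without an AT prefix) and a number. All 66 matched a locus code in a RefSeq gene table. Another 6 genes that this table names as WRKY family members are listed in the files under other names, such as TTG2 and RRS1, and were left out by that rule. RNA came from entire 7-day-old plants of the wild type Col-0 and of spl7, a mutant of the copper-homeostasis transcription factor SPL7. After 4 days in the cold at 4 °C, both genotypes were raised at 22 °C in continuous white light on MS (Murashige and Skoog) medium, without or with 5 µM CuSO4 added, and each of these 4 groups has 1 library. Values in library order below run from wild type on MS, through wild type with copper and spl7 on MS, to copper-fed spl7. The series also holds FLAG-antibody ChIP-seq of MS-grown seedlings with a 35S:FLAG-SPL7 transgene, whose 35S promoter drives expression in most tissues, and of spl7 seedlings as its negative control. A single list of 1535 peaks was analysed, and it names neither ChIP library. The labels do not say how many seedlings were pooled or which spl7 allele was used.

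WRKY proteins are known to bind the W-box, a short DNA element with the core TTGAC that is common in promoters of defence genes and of WRKY genes themselves. Many are induced by pathogens, salicylate, wounding or reactive oxygen species, downstream of mitogen-activated protein kinase cascades, and some act in senescence, phosphate nutrition and development. The family is divided by domain structure. Group I carries a pair of WRKY domains, groups IIa to IIe carry a single domain and differ in sequence, and group III has a different zinc finger next to the domain.

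Levels are in FPKM (fragments per kilobase of transcript, relative to library size), so genes of unequal length can be compared. The values summed to between 4383940 and 4694640 FPKM per library. The number of reads behind a value is unknown. SPL7 transcripts had 107, 105, 20.2 and 20.7 FPKM in library order. Markers of leaf photosynthesis (6 of 6) and of root (11 of 11) were above 0 in every library. With 1 library per group no difference has a replicate check, and no test or p-value is given. An entry counted as higher or lower had 5 FPKM or more in at least 1 of the compared libraries, and FPKM + 1 differed 2-fold or more between them. Each log2 ratio or fold is of FPKM + 1, and so understates how far low genes differ. In whole seedlings, fewer cells that express a gene and less RNA per cell cannot be told apart.

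Levels in the family ran from 0 to the 231 FPKM of WRKY15 in copper-fed spl7. WRKY15, a stress-responsive regulator of leaf growth, had the highest level in all 4 libraries, at 190, 177, 186 and 231 FPKM in library order. WRKY39 was next in all 4, at 141, 144, 137 and 156 FPKM. Of the 10 members with the highest mean, WRKY15, WRKY39, WRKY7, WRKY11 and WRKY21 belong to group IId, whose proteins are known to bind calmodulin. WRKY20, WRKY25 and WRKY3 belong to group I, WRKY57, known from drought tolerance, to IIc, and WRKY65 to IIe. Their means ran from 82.0 FPKM for WRKY3 to 196 FPKM for WRKY15. The set of 10 highest was nearly fixed, with 9 members among the top 10 of every library.

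At the other end, 13 members (19.7%) were listed at 0 in all 4 libraries, against 24.7% of all entries. These were WRKY10, WRKY34, WRKY38, WRKY43, WRKY55, WRKY58, WRKY59, WRKY62, WRKY64, WRKY66, WRKY67, WRKY68 and WRKY71. WRKY10 is known from endosperm growth and WRKY34 from pollen. WRKY38 and WRKY62 are salicylate-induced genes of basal defence. A value of 0 in these files means only that the gene is listed at 0. Another 6 members were above 0 in at least 1 library but below 5 FPKM throughout: WRKY31, WRKY13, WRKY74, WRKY42, WRKY51 and WRKY54. The remaining 47 reached 5 FPKM in at least 1 library, and 42 reached it in every library.

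**Figure D1:**
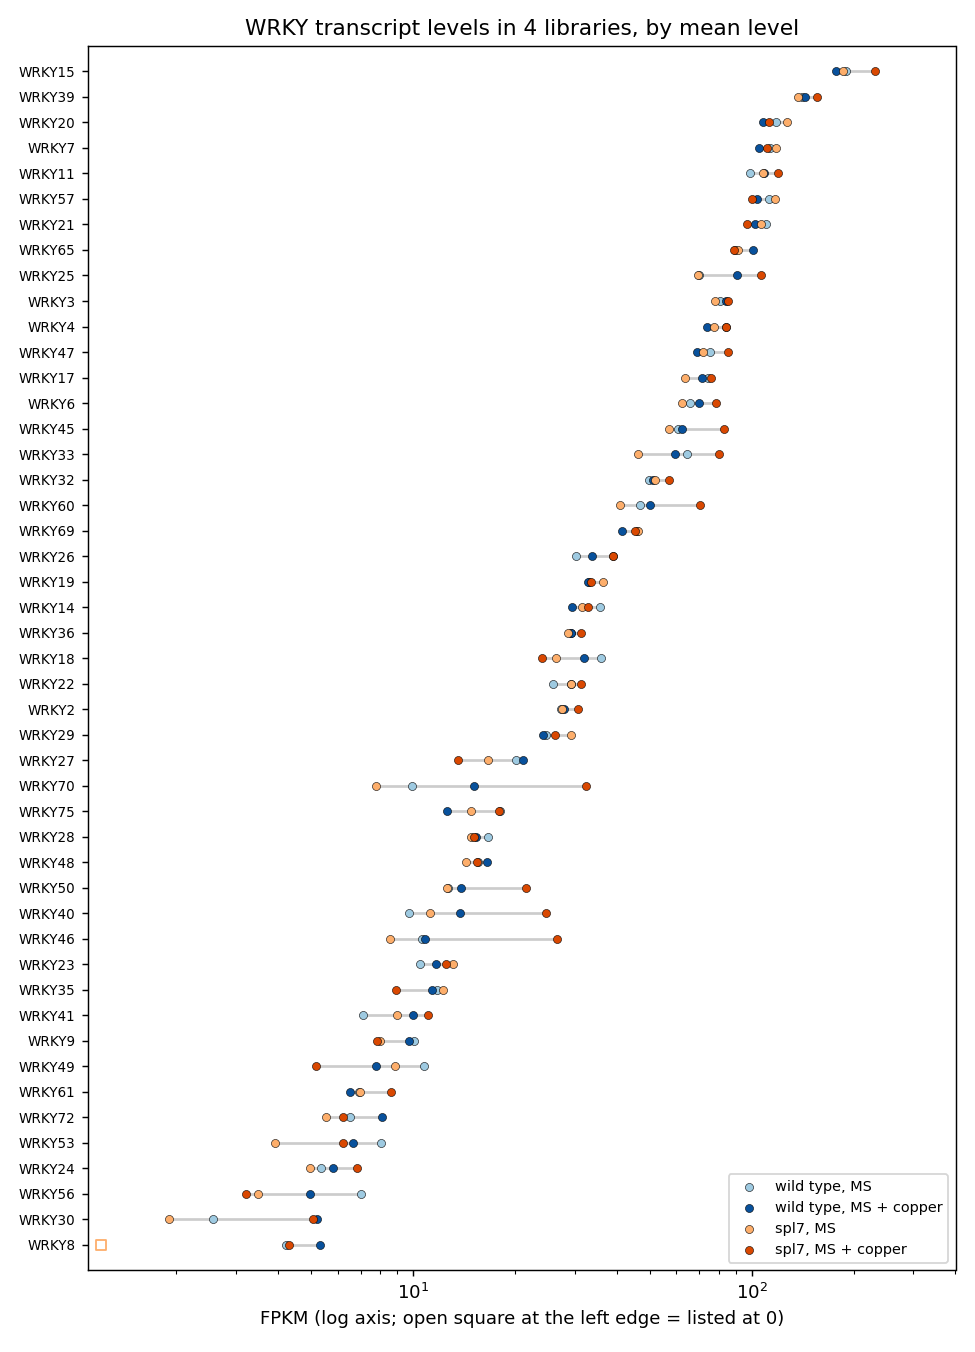
FPKM (log axis) of the 47 WRKY genes that reached 5 FPKM in any library, ordered by mean, with 1 point per library and a grey line over the range. Members of high level have short lines, and the long lines with the copper-fed spl7 point at the right end belong to WRKY70, WRKY46 and WRKY40.

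Most members varied little between the libraries. The highest value over the lowest (both FPKM + 1) had a median of 1.25-fold over the 47 members, against 1.22-fold over all entries that reached 5 FPKM. It stayed under 1.5-fold in 34 members. The 22 members with a mean of at least 30 FPKM spanned at most 1.72-fold, the value of WRKY33. All 5 members that spanned 2-fold or more came from the 25 of lower mean: WRKY70, WRKY46, WRKY40, WRKY30 and WRKY8, the last through a value of 0. Those 5 are 10.6% of the 47, where 5.11% of all entries spanned as much. In the order of mean level, 42 of 46 neighbouring pairs had overlapping ranges, so most neighbours were not separated by level.

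The library with the highest value was copper-fed spl7 for 24 of the 47 members (51.1%), against 19.7% of all entries. The lowest value lay in spl7 on MS for 19 members (40.4%), against 26.0% of all entries. The summed level of the 66 members was 2151, 2135, 2093 and 2388 FPKM in library order. Copper-fed spl7 therefore had the highest family total and spl7 on MS the lowest. These are descriptions of 4 libraries.

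On MS, the genotype contrast asks how WRKY transcripts differ when SPL7 is mutated. None of the 45 members that reached 5 FPKM was counted as higher, where 0.541% of all 18658 entries were, and none as lower, where 1.05% of entries were. The median log2 ratio, spl7 over wild type, was -0.04, against 0.00 (-0.0016) over all entries. Of the 45 members 17 (37.8%) lay above 0, against 49.7% of all entries. The lowest ratio was that of WRKY53, a group III regulator of leaf senescence, with 8.05 FPKM in the wild type against 3.90 FPKM in the mutant (log2 ratio -0.88). WRKY56 stood at 7.03 and 3.49 FPKM (log2 ratio -0.84). WRKY33, the regulator of camalexin synthesis, stood at 64.3 and 46.1 FPKM (log2 ratio -0.47). On the other side, WRKY26, a heat-responsive relative of WRKY33, stood at 30.2 and 38.9 FPKM, WRKY41 at 7.09 and 8.95 FPKM, and WRKY23, known from auxin-dependent root development, at 10.5 and 13.1 FPKM.

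The copper contrast in wild type likewise gave no counted member. Of 47 members, 0 were higher and 0 lower, where 0.950% and 0.379% of all 18742 entries were. The median log2 ratio of copper to MS was 0.02. The highest ratio belonged to WRKY30, a group III gene known to respond to reactive oxygen species, which had 2.56 FPKM without added copper and 5.22 FPKM with it (log2 ratio 0.80). WRKY70 stood at 9.96 and 15.1 FPKM (0.56) and WRKY40 at 9.70 and 13.7 FPKM (0.46). WRKY75, known from phosphate starvation and root hairs, had the lowest ratio, at 18.1 and 12.6 FPKM (-0.49), followed by WRKY56 and WRKY49 with log2 ratios of -0.43 and -0.42.

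In spl7, added copper went with higher levels of 4 members and lower levels of 0. Of 45 members that reached 5 FPKM, WRKY70, WRKY46, WRKY40 and WRKY30 were counted as higher, where 1.99% of all 18707 entries were counted as higher and 0.524% as lower. All 4 had a mean level under 20 FPKM. Among entries of such low mean the share counted as higher was 6.60% of 3592, and the members there numbered 18. The median log2 ratio over the 45 members was 0.13, against -0.03 over all entries, and 31 of the 45 (68.9%) lay above 0, against 43.2% of all entries.

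WRKY70 (AT3G56400; TAIR10 chromosome 3, 20908928 to 20910481), a group III factor known as a node between salicylate and jasmonate signalling, had the highest ratio. It had 9.96, 15.1, 7.76 and 32.4 FPKM in library order. The copper-fed mutant was the high library and the mutant on MS the low one, a 3.81-fold difference with a log2 ratio of 1.93.

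WRKY46 (AT2G46400; chromosome 2, 19043414 to 19044826), also of group III and known to act beside WRKY70 and WRKY53 in basal resistance, stood at 10.7, 10.9, 8.54 and 26.7 FPKM. Its 3 other libraries lay close together, and copper-fed spl7 stood 2.90-fold above spl7 on MS (log2 ratio 1.54).

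WRKY40 (AT1G80840), a group IIa repressor in defence and abscisic acid responses, stood at 9.70, 13.7, 11.2 and 24.8 FPKM, with a log2 ratio of 1.08 between the media in spl7. The copper-fed library was the higher one in both genotypes. The files give WRKY40 one interval together with a neighbouring gene, AT1G80850 (chromosome 1, 30383691 to 30387522), whose log2 ratio in the same comparison was 0.08.

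WRKY30 (AT5G24110; chromosome 5, 8153115 to 8154709) stood at 2.56, 5.22, 1.90 and 5.08 FPKM, so both copper-fed libraries were high and both MS libraries low. Its log2 ratio was 1.07 in spl7 and 0.80 in wild type, and it passed the minimum of 5 FPKM only in the copper-fed libraries.

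**Figure D2:**
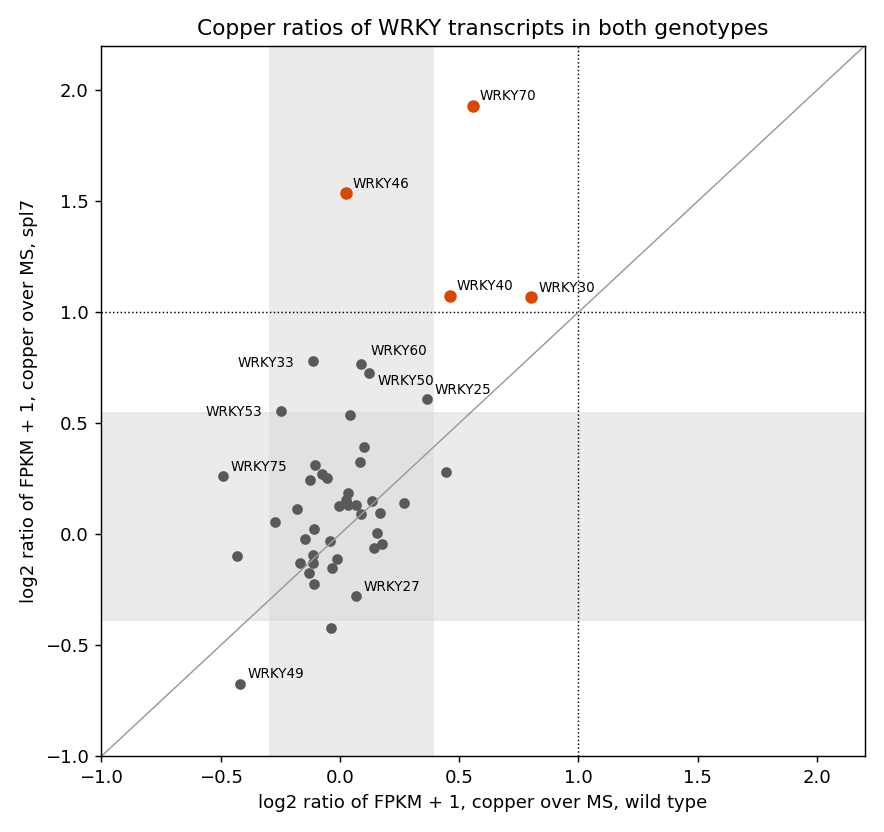
Log2 ratio of FPKM + 1, copper over MS, in wild type (x) and spl7 (y) for 46 WRKY genes that reached 5 FPKM in any library; WRKY8, listed at 0 in 1 library, is not drawn. Grey bands hold the central 90% of all entries, dotted lines mark 2-fold, the diagonal marks equal ratios, and the 4 orange points counted in spl7 lie above it.

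Below the 2-fold line a second set of members had copper ratios in spl7 above the central 90% of all entries, whose upper bound was a log2 ratio of 0.54. Including the 4 counted members, 9 of 45 lay above that range and 2 below it. The range is over entries of all levels, and the 4 counted members, WRKY50 and WRKY53 had a mean under 20 FPKM. Ratios spread more there, with 6.60% of entries counted as higher against 1.99% of all. In spl7, WRKY33 had 46.1 FPKM without and 79.9 FPKM with copper (log2 ratio 0.78), WRKY60 of group IIa had 40.8 and 70.2 FPKM (0.77), and WRKY50 of group IIc had 12.6 and 21.5 FPKM (0.73). WRKY25, a relative of WRKY33 known from heat and osmotic stress, stood at 69.5 and 106 FPKM (0.61), and WRKY53 at 3.90 and 6.21 FPKM (0.56). WRKY33 and WRKY53 share their intervals in the files with AT2G38480 and AT4G23800, whose log2 ratios were -0.44 and -0.10. The lowest ratios were those of WRKY49, at 8.84 and 5.17 FPKM (-0.67), WRKY35, at 12.2 and 8.89 FPKM (-0.42), and WRKY27, known from bacterial wilt, at 16.7 and 13.5 FPKM (-0.28).

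A pair of members was above 0 in copper-fed spl7 alone. WRKY51, a group IIc relative of WRKY50, was listed at 0 in the 3 other libraries and stood at 4.09 FPKM there. WRKY54, the group III relative of WRKY70, was likewise listed at 0 in 3 libraries and stood at 1.75 FPKM. Both lay below the minimum of 5 FPKM and were not counted, and no ratio is given against 0.

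With copper on both sides, 2 members were higher in spl7 than in wild type and 0 were lower. Of the 46 that reached 5 FPKM these were WRKY46, with 10.9 FPKM in the wild type against 26.7 FPKM (log2 ratio 1.22), and WRKY70, with 15.1 against 32.4 FPKM (1.05). Among all 18805 entries 0.989% were counted as higher and 0.814% as lower, and among those of mean under 20 FPKM 3.55% were higher. WRKY40 followed at 13.7 and 24.8 FPKM (0.81). The median over members was 0.12, against -0.03 over all entries, with 32 of 46 (69.6%) above 0, against 44.0% of all entries. The lowest members were WRKY27, at 21.2 and 13.5 FPKM (-0.61), WRKY49, at 7.79 and 5.17 FPKM (-0.51), and WRKY18, at 31.9 and 24.1 FPKM (-0.39). This comparison shares the copper-fed spl7 library with the copper contrast in spl7, and each other pair of genotype and copper contrasts shares a library in the same way.

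The copper ratio of wild type was then subtracted from that of spl7, and members were counted where the log2 difference reached 1 and any library reached 5 FPKM. Of 47 members 3 were counted as higher and 0 as lower, where 1.57% and 0.958% of all 18989 entries were. All 3 had a mean under 20 FPKM, where 5.66% of entries were counted as higher. The difference was 1.51 for WRKY46 and 1.37 for WRKY70. WRKY8, a group IIc gene known from wound and pathogen responses, was counted through a single 0: it had 4.21, 5.31, 0 and 4.29 FPKM in library order. For WRKY40 the difference was 0.61 and for WRKY30 0.26, so neither was counted. With 1 library per group the difference has no error and was not tested.

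Arranged by structure, the members counted in the 4 comparisons belonged to groups III and IIa, and WRKY8, counted in the difference alone, to IIc. Group III had 12 members in the files, of which 6 were listed at 0 throughout and 5 reached 5 FPKM. Of those 5, WRKY70, WRKY46 and WRKY30 were counted as higher with copper in spl7 and WRKY41 and WRKY53 were not, beside 1.99% of all entries and 6.60% of those of mean under 20 FPKM, where all 5 lie. The group median log2 ratio was 1.07 with copper in spl7 and 0.45 in wild type. The median in spl7 is the ratio of WRKY30 itself, which stood at 1.90 and 5.08 FPKM. WRKY30 and WRKY53 passed the minimum of 5 FPKM in that comparison only through copper-fed spl7. Summed over group III, the level was 38.3, 47.8, 31.1 and 83.2 FPKM in library order. Group IIa had 3 members, with 1 counted, WRKY40, and a median of 0.77 in spl7 and 0.09 in wild type. In groups I, IIb, IIc, IId and IIe none was counted in any of the 4 comparisons, and the medians with copper in spl7 ran from -0.04 for IIe to 0.19 for IIb. Group IId, with the highest sum of levels in every library, had 6 tested members and a median of 0.17.

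**Figure D3:**
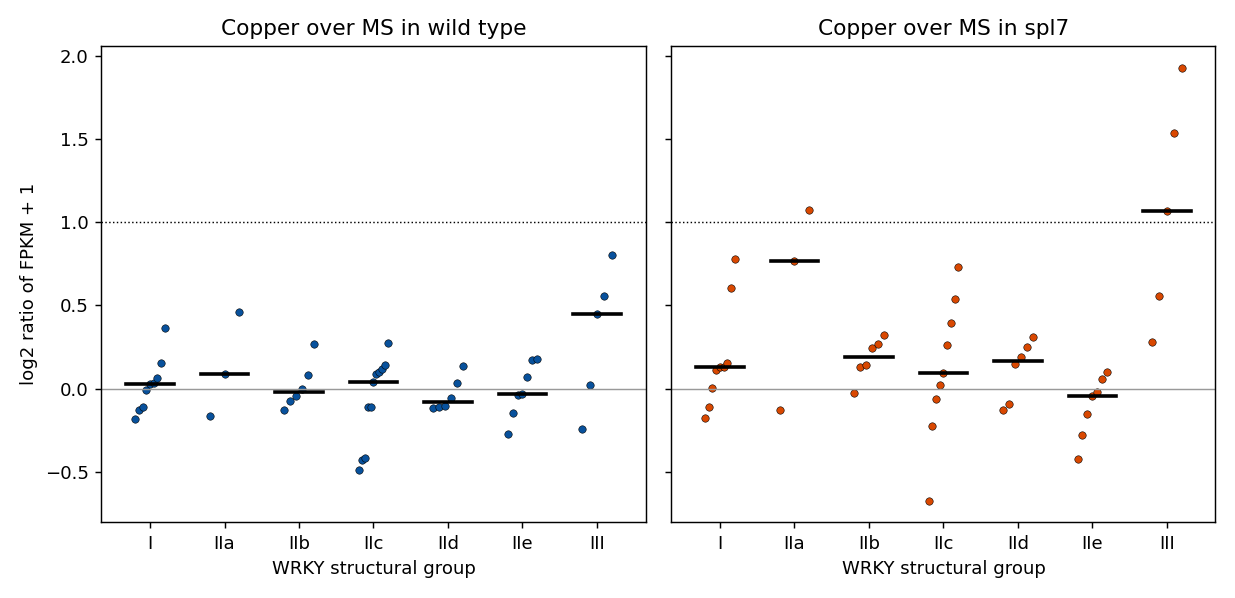
Log2 ratio of FPKM + 1, copper over MS, of WRKY genes by structural group in wild type (left) and spl7 (right); each point is a gene with 5 FPKM in either library, bars are group medians and the dotted line marks 2-fold. In spl7, 3 group III genes and 1 group IIa gene lie above the line, and in wild type none does.

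Close relatives did not always share a pattern. In group IIa, whose 3 proteins are known to form complexes with each other, WRKY40 and WRKY60 were highest in copper-fed spl7, whereas WRKY18 was lowest there, at 36.0, 31.9, 26.5 and 24.1 FPKM in library order. WRKY18 was thus lower in both spl7 libraries than in both wild-type libraries. Among the relatives WRKY33, WRKY25 and WRKY26, the first 2 were highest in copper-fed spl7, at 79.9 and 106 FPKM, while WRKY26 stood at 38.9 and 39.0 FPKM in the spl7 libraries and at 30.2 and 33.7 FPKM in wild type.

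WRKY45 and WRKY75, both linked to phosphate supply, differed in level and order: WRKY45 stood at 60.6, 62.5, 56.9 and 83.2 FPKM and WRKY75 at 18.1, 12.6, 14.8 and 18.0 FPKM. WRKY6 and WRKY42, known as repressors of the phosphate exporter gene PHO1, stood far apart, at 62.5 to 78.5 FPKM and 0 to 2.76 FPKM. WRKY31, their relative, lay between 3.66 and 4.80 FPKM. WRKY11 and WRKY17, negative regulators of basal resistance, lay between 99.2 and 120.0 FPKM and between 63.5 and 75.8 FPKM. WRKY7 and WRKY15, also of group IId, lay between 105 and 118 FPKM and between 177 and 231 FPKM.

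WRKY22 and WRKY29, which act downstream of the flagellin-activated kinase cascade, lay between 25.9 and 31.3 FPKM and between 24.2 and 29.4 FPKM. Neither was counted in any comparison. WRKY3 and WRKY4 spanned 1.09-fold and 1.14-fold. WRKY21 and WRKY39 were high while WRKY74, of the same group, stayed at or below 2.29 FPKM. WRKY65 and WRKY69 of group IIe lay between 88.8 and 101 FPKM and between 41.5 and 46.0 FPKM. Of the relatives WRKY8, WRKY28, WRKY48 and WRKY71, WRKY28 lay between 14.8 and 16.7 FPKM, WRKY48 between 14.4 and 16.6 FPKM, and WRKY71 was listed at 0. WRKY13, a regulator of stem development, lay between 2.54 and 4.95 FPKM. The members not described one by one (WRKY2, WRKY9, WRKY14, WRKY19, WRKY24, WRKY32, WRKY36, WRKY47, WRKY61 and WRKY72) were not counted either. Their levels ran from 4.97 FPKM for WRKY24 in spl7 on MS to 85.2 FPKM for WRKY47 in copper-fed spl7, and the range within a gene from 1.09-fold (WRKY36) to 1.39-fold (WRKY72).

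Position on the chromosome joined few members. WRKY54 and WRKY55 lie next to each other on chromosome 2 with 1176 bp between them, and only WRKY54 was above 0, in copper-fed spl7. WRKY64 and WRKY67 lie 3939 bp apart on chromosome 1 with 1 entry between them, and both were listed at 0 in all libraries. No other members lay within 20 kb of each other.

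Partners and targets of WRKY proteins were then examined. Of 11 genes of the kinase cascade and of VQ-motif partners, 1 was higher with copper in spl7 and 0 lower, where 1.99% and 0.524% of all entries were. This was SIB1, whose protein is known to bind WRKY33, at 8.49, 14.9, 4.57 and 58.0 FPKM in library order (log2 ratio 3.40 in spl7). SIB1 passed the minimum of 5 FPKM in that comparison only through copper-fed spl7, the library where it is high. The kinase genes MPK3 and MPK6 had log2 ratios of -0.13 and -0.15 in the same comparison, and the list median was 0.00 (-0.0017). SIB1 was also the only gene of that list counted in the genotype contrast with copper.

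In the list of 19 salicylate-branch genes and WRKY-linked targets, 17 reached 5 FPKM in either spl7 library, of which 5 were higher with copper and 0 lower (list median 0.36). Over all entries 1.99% were higher, and over those of mean under 20 FPKM, where these 5 genes lie, 6.60%. PAD3, the last enzyme of camalexin synthesis, stood at 2.64, 3.64, 4.90 and 53.8 FPKM in library order (log2 ratio 3.22 between the media in spl7). CBP60G, an activator of salicylate synthesis, stood at 10.2, 14.1, 8.87 and 31.6 FPKM (1.73). FRK1, a receptor kinase gene used as a marker of early immune signalling, was listed at 0 in wild type on MS and stood at 1.27, 1.42 and 8.12 FPKM in the other libraries. SARD1, an activator of salicylate synthesis like CBP60G, stood at 1.69, 1.91, 0 and 5.50 FPKM. BGL2, a pathogenesis-related glucanase, stood at 0, 4.35, 0 and 5.81 FPKM, so it was listed at 0 on MS and above 0 with copper in both genotypes. In wild type it stayed under the minimum of 5 FPKM. With copper on both sides 4 of the 17 were higher in spl7 (PAD3, FRK1, SARD1 and CBP60G), where 0.989% of all entries and 3.55% of those of mean under 20 FPKM were. On MS, and with copper in wild type, 0 of 13 were counted in either direction. PAD3, FRK1, SARD1 and BGL2 reached 5 FPKM only in copper-fed spl7. They thus entered the counts through the library where they are high, and are not among the 13. SARD1 and BGL2 were also listed at 0 in spl7 on MS. The salicylate synthesis gene SID2, the receptor NPR1 and CYP71A13, another gene of camalexin synthesis, were not counted in any comparison. CYP71A13 stood at 15.5, 15.9, 16.6 and 12.7 FPKM in library order (log2 ratio -0.36 between the media in spl7).

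**Figure D4:**
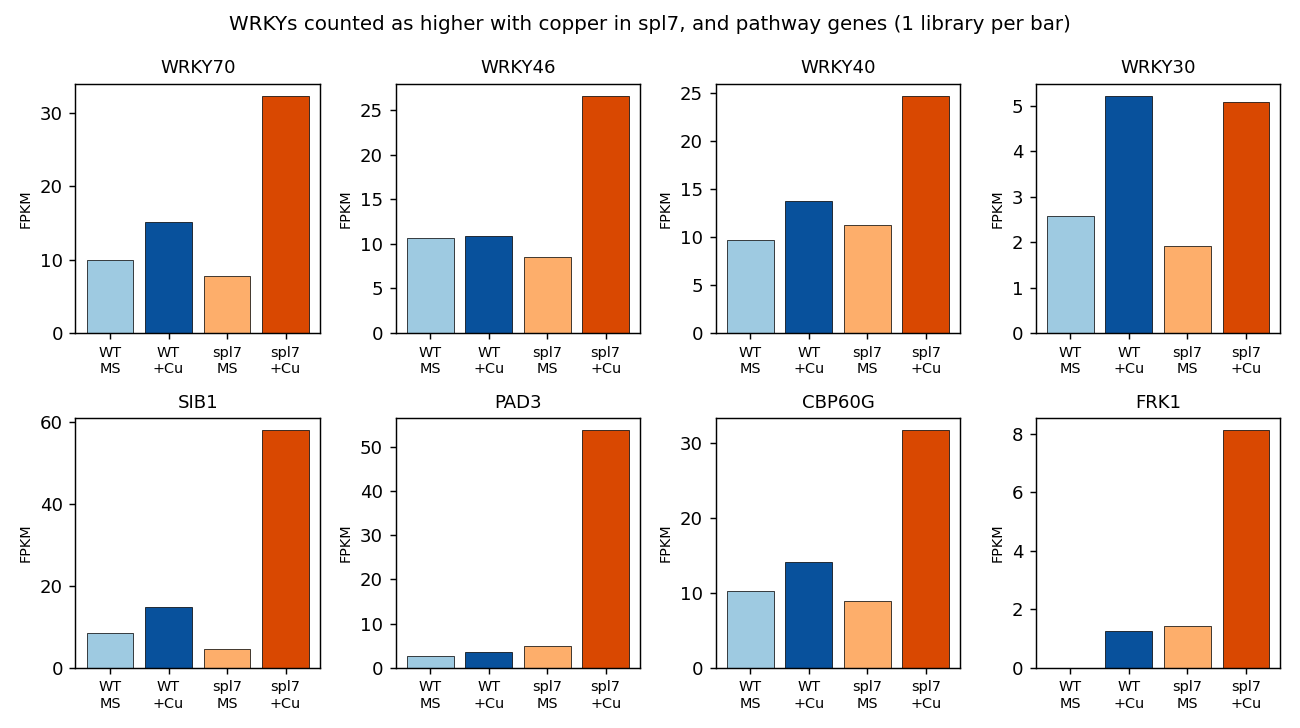
FPKM in the 4 libraries (wild type, WT, and spl7, on MS or with copper, +Cu) of the 4 WRKY genes counted as higher with copper in spl7 and of SIB1, PAD3, CBP60G and FRK1; each bar is 1 library without replicate. Copper-fed spl7 is the highest bar in all panels except that of WRKY30, where both copper-fed libraries are about 5 FPKM.

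Other gene sets differed between the same libraries. Of 11 genes of the early response to touch and wounding, which also induces several WRKY genes, 3 were higher with copper in spl7 and 0 lower: TCH3, at 191 and 433 FPKM, ZAT10, at 18.6 and 42.9 FPKM, and ZAT12, at 44.0 and 89.8 FPKM. Among all entries the shares were 1.99% and 0.524%. In wild type, without and with copper, TCH3 stood at 335 and 325 FPKM, ZAT10 at 20.7 and 25.2 FPKM and ZAT12 at 53.4 and 66.5 FPKM. With copper on both sides 0 of the 11 were higher and 0 lower in spl7, where 0.989% and 0.814% of all entries were. That list summed to 969.9, 975, 734 and 1109 FPKM in library order, and its median log2 ratio in spl7 was 0.78. Of 6 matched senescence genes, 5 reached 5 FPKM in either spl7 library. With copper in spl7, 1 was higher and 0 lower (1.99% and 0.524% of all entries). This was SAG13, at 3.86 and 36.8 FPKM, which reached 5 FPKM only in copper-fed spl7. NAP and NAC092 had log2 ratios of -0.45 and -0.20 in that comparison, and SAG21 and SGR1 of 0.24 and 0.31 (list median 0.24). SAG12 was listed at 0 throughout. Seed markers summed to 329, 684, 214 and 570.2 FPKM, with 0 to 3 of 10 listed at 0. With copper, 4 of 7 seed markers were higher and 0 lower in spl7 (1.99% and 0.524% of all entries), and 6 of 10 were higher in wild type (0.950% of all entries). With copper on both sides 6 of 10 were lower in spl7 (0.814% of all entries), and on MS 2 of 9 were (1.05% of all entries). The storage protein genes CRU2 and SESA4 were at 0 in both spl7 libraries, and SESA2 in copper-fed spl7. Between the copper-fed libraries, CRU2, SESA4 and SESA2 thus reached 5 FPKM only in wild type. SESA4 was also listed at 0 in wild type on MS. The seed markers CRA1, CRU3, EM6 and OLEO1 were not counted between the copper-fed genotypes. Their log2 ratios of spl7 to wild type there were 0.19, -0.09, 0.42 and -0.31. Root markers summed to between 447 and 499 FPKM. The part of these sets in the WRKY values was not tested.

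Peaks of the SPL7 list were then placed beside WRKY genes. Within the gene or 1 kb on either side, 2 of 66 members (3.03%) had a peak, against 6.70% of all entries. WRKY13 (AT4G39410; chromosome 4, 18332878 to 18334789) had a peak of 317 bp that ended 363 bp before its start coordinate, and another of 340 bp inside the gene. Their scores, the peak caller's own as deposited by the authors, were 202 and 181, ranks 944 and 1392 of 1535. WRKY42 had a peak of 468 bp that began 535 bp after its end coordinate, at 333 and rank 494. The files give no strand, so upstream and downstream cannot be told apart. Neither gene reached 5 FPKM in any library. None of the members counted in any comparison had a peak within 3 kb.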

How the data were processed

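RNA-seq FPKM values of 4 libraries were deposited by the authors. The submitters' processing notes name CASAVA 1.8.2, TopHat, Cufflinks and the build TAIR10, and the series description keeps uniquely mapped reads, so close gene copies can lose reads. For TopHat, Cufflinks and the FPKM scaling, versions and settings were not given in the sources used here. No stranded kit is named, so it is unknown whether reads of overlapping genes were told apart by strand. Of the members, 6 share an interval with another entry, and each has its own FPKM. Peak scores are as deposited by the authors, with MACS in the peak names and mapping by Bowtie, per the submitters' processing notes; the score's meaning was not given in the sources used here.

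Low values were checked for steps of whole reads: the commonest log2 ratio to wild type on MS held 3.96% to 6.46% of entries under 5 FPKM, so depth was taken as unknown.

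Samples were grouped by title, 1 library per group. Ratios are log2 of FPKM + 1 over all 27052 entries, computed with Python 3.11.15 and pandas 2.3.3. The counting of higher and lower entries was tested on simulated data without noise, with changes well beyond the threshold and none in low-level entries. That checked the counting step alone, and not how reliable a count is at low level or near the threshold. File starts count from 0 and 1 bp was added. Names came from a RefSeq table of TAIR10.1 (26520 entries matched), with no coordinate from it. Members and lists were chosen with earlier results of these data known. Named were counted members, the 10 of highest mean and the 3 highest and lowest ratios per comparison. Members at 0 or with a peak, close relatives, and up to 4 counted genes per list were also named. BGL2, MPK3, MPK6, SID2, NPR1, CYP71A13, the senescence genes and the markers were named after their values were seen. The bands of 20 and 30 FPKM were likewise set after values were seen. Promoter motifs and protein features had been planned and were not analysed here, and SEN1 was not matched. Alternatives covered the pseudocount, minimum, fold, scaling, zeros, shared intervals, flank and peak score.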

Additional observations from a re-analysis of the deposited data

Results flagged for a closer look

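Among WRKY and pathway genes above 0 in every library, those with a log2 difference between the genotypes' copper ratios of at least 1, ratios of opposite sign and 1 of these ratios counted are given here. The genotype ratio met this in 4 genes, each from 4 single libraries, and no difference was tested. WRKY46 had a log2 ratio of spl7 to wild type of -0.29 on MS and 1.22 with copper, a difference of 1.51. WRKY70 had ratios of -0.32 and 1.05, a difference of 1.37. SIB1 had ratios of -0.77 and 1.89, a difference of 2.66, and CBP60G ratios of -0.18 and 1.12, a difference of 1.30. The copper ratio of TCH3, a touch-induced calmodulin-like gene, was -0.04 in wild type and 1.18 in spl7, a difference of 1.22 that was not tested either.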

How the results depend on the processing

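Counts of WRKY genes are small and depend on the threshold. Rescaling the libraries to equal medians of ratios changed no count, and moved the median of all entries by at most 0.03 (log2). Shares in parentheses are over all entries at the same setting. At 1.5-fold, 8 members were higher (4.48%) and 1 lower (1.89%) with copper in spl7 (WRKY25, WRKY33, WRKY50 and WRKY60 added, WRKY49 lower). In spl7 with copper on both sides 4 were higher (2.63%) and 1 lower (2.06%), on MS 2 were lower (3.16%), with copper in wild type 1 was higher (2.52%), and in the difference 9 were higher (3.88%). At 4-fold 0 were higher with copper in spl7 (0.780%), 0 for genotype with copper (0.351%) and 1, WRKY8, in the difference (0.606%). With a pseudocount of 5 FPKM, WRKY46 and WRKY70 remained of the 4 with copper in spl7 (2 members; 1.44%), and 0 were higher for genotype with copper (0.702%). With a pseudocount of 0.1 FPKM, 1 member (WRKY53) was lower in spl7 on MS (1.24%). With no minimum, 7 were higher with copper in spl7 (2.09%), where WRKY51, WRKY54 and WRKY8 entered. For genotype with copper 5 were higher (1.22%) and in the difference 6 (1.91%), and WRKY51, WRKY54 and WRKY42 entered both counts. At that setting 1 member, WRKY8, was lower in spl7 on MS (1.47%) and 1, WRKY42, lower with copper in wild type (0.758%). Each member that entered was listed at 0 in at least 1 of the compared libraries. A minimum of 20 FPKM kept WRKY40, WRKY46 and WRKY70 with copper in spl7 (1.31%). Members with a peak numbered 1 with a flank of 500 bp (1.52%, against 5.52% of all entries), 4 with 3 kb (6.06% against 10.7%) and 1 for the higher-scoring peaks alone (1.52% against 3.44%). The other 72 recomputed counts stayed within 1.5 times. No paired analysis was possible because each group has 1 library. No replicate could be left out for the same reason, and unknown depth leaves values of a few FPKM without a counting error.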

Other observations

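The 6 WRKY family genes listed under other names were not counted in any comparison. ZAP1 (WRKY1) had 136, 137, 151 and 145 FPKM in library order. TTG2 (WRKY44), which acts in trichome and seed coat development, stood at 16.1, 15.4, 10.1 and 7.78 FPKM, so both spl7 libraries were lower than both wild-type libraries. TTR1 (WRKY16) lay between 51.7 and 57.6 FPKM and RRS1 (WRKY52), a resistance protein that carries a WRKY domain, between 27.1 and 33.6 FPKM. AT2G44745 (WRKY12) stood at 2.53 FPKM in wild type with copper and was listed at 0 elsewhere, and ABO3 (WRKY63) was listed at 0 in all 4.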
